A study of Rattus norvegicus with 4 samples.

Results

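The receptors for the neurotrophins and for the GDNF family of growth factors, with the neurotrophin Bdnf, were followed in rat vestibular ganglion neurons. The set held 9 genes chosen by name (Ntrk2, Ntrk3, Ngfr, Sort1, Bdnf, Gfra1, Gfra2, Gfra3 and Ret), of 12111 genes with a probe of 1 symbol on the array. All 9 had a probe, 22 probes in all.

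Neurons of the vestibular ganglion were captured with a laser from tissue stained for calretinin, a calcium-binding protein, and total RNA of the pooled cells was hybridised to 1-colour (Cy5) arrays. There were 2 arrays titled calretinin_positive and 2 titled calretinin_negative. The series' design text equates positive cells with afferents that end as calyces, and negative cells with dimorphic and bouton afferents. Groups were set by title alone, since the text describing the negative arrays also speaks of positive cells. The sources used here state no strain, age, sex or number of animals, and nothing says that the arrays of a group came from separate pools, so p-values measure only the spread between these arrays, which may be technical.

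Neurotrophins are secreted growth factors that keep sensory neurons alive and shape their axons and synapses. They signal through Trk receptor tyrosine kinases and through p75, a receptor of the tumour necrosis factor receptor family, while their unprocessed forms bind p75 together with sortilin. GDNF family ligands bind a GFRα co-receptor, held in the membrane by a lipid anchor, and the pair activates the tyrosine kinase RET. In mice, inner ear afferents depend on TrkB and TrkC and on their ligands for survival during development, and glial cells are known to express truncated forms of TrkB.

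Which value belongs to a name is not certain for the whole table. In the early part of the table, names were read at their own row. In the late part the value 5 table rows later was read, and names between these parts were not read. When 1 sequence accession was probed in both parts, the mean log2 levels of the early and the late probe correlated at r = 0.36 with the late value taken 5 rows down (373 pairs of probes). At the other offsets from 0 to 10 rows r lay between -0.18 and 0.04, and pairs of probes within the early part reached r = 0.45 (183 pairs). The reading is weakest in the last stretch of the table, which holds the probes of Ntrk3 and Sorcs1 and Ntrk2 probe 317046. There r was 0.21 at 5 rows (75 pairs), beside -0.20 to 0.11 at the other offsets. In the stretch before it r was 0.41 at 5 rows, and the other offsets reached 0.24. These are correlations across probes of the same 4 arrays and describe the table only. No layout of the array was at hand to settle the reading, so it remains an assumption for every late probe, those of Ntrk3 and Ret, Ntrk2 probe 317046, Sorcs1 and Ncam1 included. Calretinin itself, Calb2, has a late probe. On the reading used it averaged 309 ± 26.0 in positive arrays and 134 ± 6.67 in negative arrays (SD, n = 2 each), in the direction of the titles. At its own row it had 6.01 ± 0.121 in positive arrays and 12.7 ± 0.489 in negative arrays, against the titles. Since cells were chosen by their calretinin staining, neither value is a finding.

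Of the 22 probes, 10 lay in the early part, 9 in the late part and 3 (of Gfra1, Gfra2 and Ret) between them. Of the 19 probes read, 11 were bright enough to be tested, meaning that their mean log2 intensity lay above the 40th percentile of all probes, an intensity of 0.456. They covered 7 genes. The other 8 probes were too dim, and Bdnf and Gfra2 had dim probes only. Intensities are on the deposited linear scale, on which the median of each array was close to 0.99, and levels of different probes cannot be set against each other. The sources used here do not say which splice form a probe reads.

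Of the 11 tested probes 5 passed an adjusted p of 0.05, 2 higher and 3 lower in positive arrays (limma, Benjamini-Hochberg over 21070 probes). Over all tested probes 64.2% passed, 40.6% higher and 23.6% lower, so the share of receptor probes that passed, 45.5%, lay below that background. Their median log2 change, positive minus negative, was -0.05, where the median of all tested probes was 0.11. A call with a change of at least 2-fold was made for 2 receptor probes, 0 higher and 2 lower, where 15.3% of all tested probes had one, 8.28% higher and 7.07% lower. Of all calls 63.3% were higher, a share that came to 53.6% with quantile and 49.6% with cyclic loess normalization, when the median of all probes moved to 0.02 and -0.01. The probes that fell belonged to Ntrk2, Gfra1 and Ret, and those that rose to Ntrk3 and Ret. An exact permutation of 2 against 2 arrays could not give a two-sided p below 0.333, so no member was tested in that way.

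**Figure D1:**
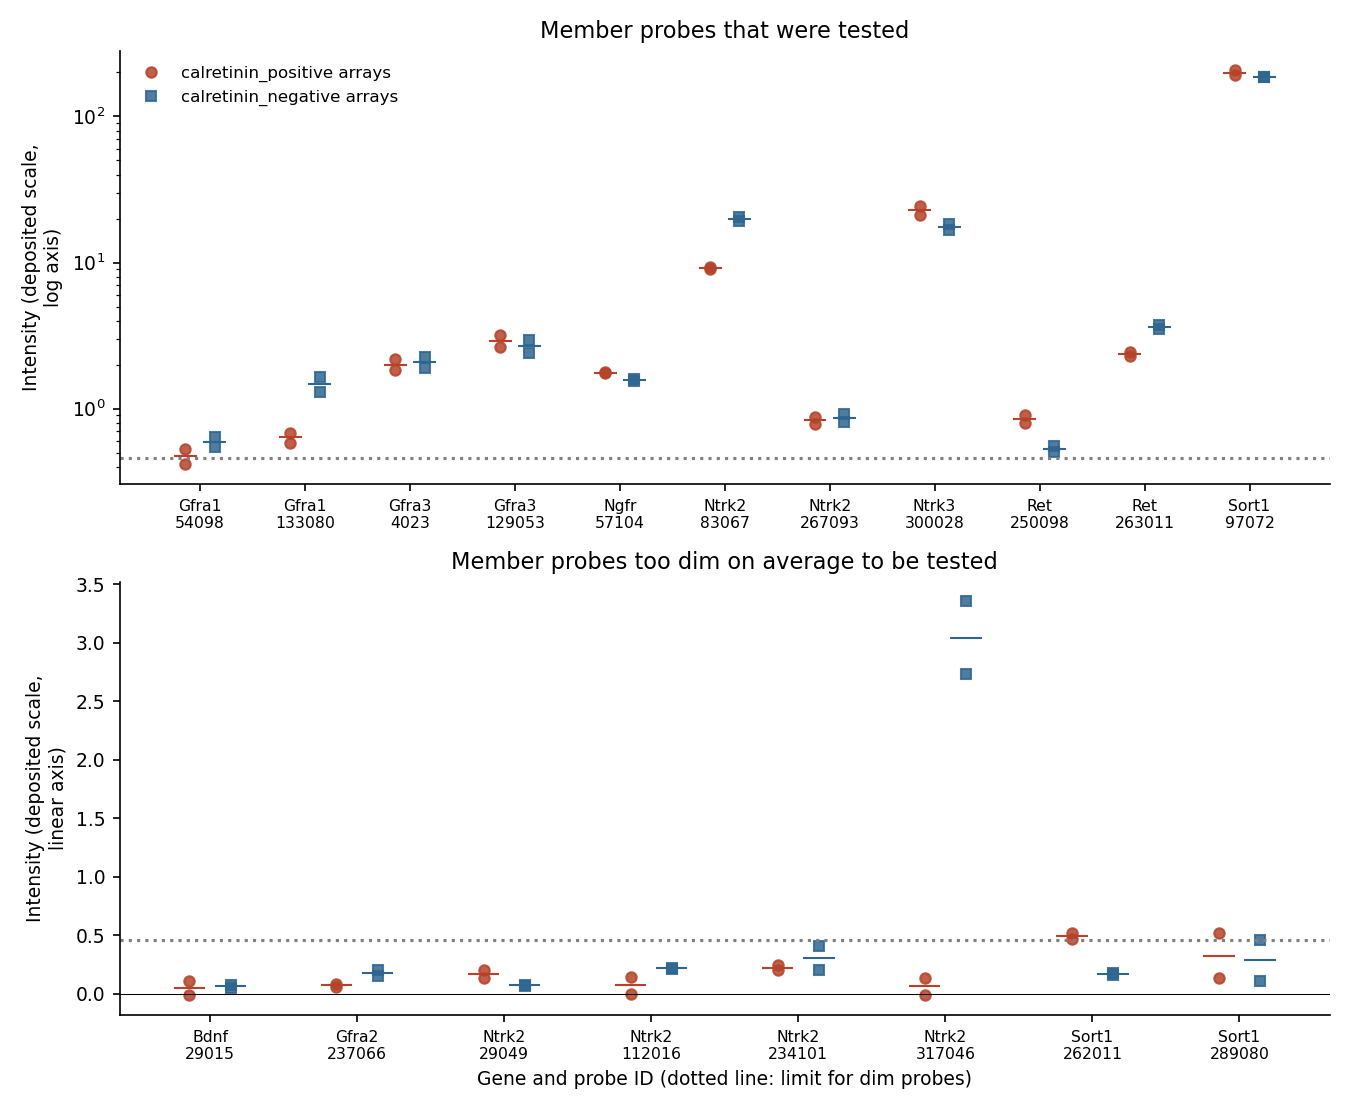
Intensity of every probe read, with a probe in each column (gene and probe ID), circles for the 2 positive arrays on the left, squares for the 2 negative arrays on the right and a short line for each mean. The upper panel (log axis) holds the 11 tested probes and the lower panel (linear axis) the 8 dim ones, and the dotted line is the limit of 0.456. Ntrk2 probe 83067, Gfra1 probe 133080 and Ret probe 263011 lie lower in positive arrays, and Ntrk2 probe 317046 lies above the limit in negative arrays only.

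Promoters are shown for Gfra1 and Ret, a co-receptor and its signalling partner that each had a probe falling in positive arrays. The windows are the 250 bases before the annotated gene start, from RefSeq on build GRCr8, in which 5 of the 9 genes had an entry. Both lie on the minus strand and are written 5′ to 3′ along the gene. Capitals mark GGGCGG, the GC box, or its reverse.
Gfra1, chr1:267555812-267556061: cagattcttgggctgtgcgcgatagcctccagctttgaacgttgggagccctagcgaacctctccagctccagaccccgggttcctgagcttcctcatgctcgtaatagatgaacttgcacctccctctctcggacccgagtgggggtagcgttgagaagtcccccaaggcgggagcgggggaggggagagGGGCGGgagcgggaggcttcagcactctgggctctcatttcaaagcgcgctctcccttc
Ret, chr4:153040557-153040806: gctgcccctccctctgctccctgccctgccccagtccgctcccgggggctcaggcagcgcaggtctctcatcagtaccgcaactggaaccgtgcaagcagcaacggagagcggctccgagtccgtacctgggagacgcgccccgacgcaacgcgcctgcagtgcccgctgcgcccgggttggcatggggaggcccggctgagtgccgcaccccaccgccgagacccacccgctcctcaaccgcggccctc

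The Gfra1 window had a GC content of 62.0% with 15 CpG dinucleotides and the Ret window 72.8% with 25, where the median of 33469 such windows was 51.2% with 5. On both strands the Gfra1 window held 1 GC box and the Ret window 0, and 30.5% of all windows held at least 1. The letters TATAAA (12.9% of all windows), CACGTG (5.59%), TGACGTCA (1.59%) and AACAAT (10.3%) were in neither window. A match or its lack describes these letters in this window and nothing more.

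Ntrk2, which encodes the receptor tyrosine kinase TrkB for BDNF and for the neurotrophin that Ntf4 encodes, was read with 6 probes. The brightest, probe 83067 (sequence BI299228), had an intensity of 9.09 and 9.27 in positive arrays, against 20.6 and 19.2 in negative arrays. Both positive arrays lay below both negative arrays, which differed little between themselves. The mean was 9.18 ± 0.125 in positive arrays and 19.9 ± 1.03 in negative arrays (SD, n = 2 each), with -1.12 ± 0.07 as the log2 change (SE; adjusted p = 8.07e-07, limma). This was a 2.17-fold lower level in positive arrays.

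The other Ntrk2 probes did not all follow it. Probe 267093 (AY265419, late part) had 0.789 and 0.881 in positive arrays, against 0.813 and 0.914 in negative arrays, so that the groups overlapped (log2 change -0.05 ± 0.16, SE; adjusted p = 0.815, limma). Probe 317046 (CB724307, late part) had 0.137 and -0.00870 in positive arrays, against 3.35 and 2.73 in negative arrays. Its positive values lay well below the limit for dim probes and its negative values above it, in the same direction as probe 83067. Its mean over the 4 arrays kept it out of the test, and no fold is given. With no filter on dim probes it had an adjusted p of 0.000330 (limma). At its own row the gap is not seen, with 0.747 and 0.695 in positive arrays, against 0.802 and 0.848 in negative arrays (adjusted p = 0.337, limma). The remaining 3 Ntrk2 probes stayed between -0.00110 and 0.404 on all arrays and give no direction.

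Ntrk3 encodes TrkC, the receptor for the neurotrophin that Ntf3 encodes, and had 1 probe, in the late part. Its intensity was 21.2 and 24.6 in positive arrays, against 18.2 and 16.6 in negative arrays. Both positive arrays lay above both negative ones, by a margin similar to the gap between the 2 positive arrays. The mean was 22.9 ± 2.42 in positive arrays and 17.4 ± 1.16 in negative arrays (SD, n = 2 each), with a log2 difference of 0.39 ± 0.09 (SE; adjusted p = 0.00315, limma). The call was lost with quantile normalization (log2 change 0.18, adjusted p = 0.0965, limma) and with cyclic loess normalization (0.19, adjusted p = 0.0674, limma). At its own row the Ntrk3 probe would be too dim to be tested, with 0.124 and 0.0219 in positive arrays, against 0.0980 and 0.231 in negative arrays.

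Ngfr, which encodes p75, had 1.77 and 1.76 in positive arrays, against 1.55 and 1.60 in negative arrays. The groups did not overlap, as for 81.7% of all tested probes, and the log2 change of 0.16 ± 0.10 (SE) did not pass (adjusted p = 0.163, limma).

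Sort1 encodes sortilin, which sorts neurotrophins inside the cell and binds their unprocessed forms with p75. Its bright probe 97072 (CA505850) had 192 and 207 in positive arrays, against 186 and 187 in negative arrays. The lowest positive array lay just above the highest negative one. The log2 change of 0.10 ± 0.07 (SE) did not pass (adjusted p = 0.283, limma), and it turned to -0.18 with quantile normalization (adjusted p = 0.0338, limma) and to -0.20 with cyclic loess (adjusted p = 0.0304, limma), so Sort1 has no settled direction. Among all 5066 tested probes with a mean log2 above 4 the median log2 change was 0.23. This Sort1 probe, at a mean log2 of 7.59, is far brighter than that lower bound. Sort1 probe 262011 (AF019109, late part), too dim to be tested, had 0.471 and 0.522 in positive arrays, against 0.177 and 0.160 in negative arrays. With no filter on dim probes it had an adjusted p of 0.0110 (limma). The third Sort1 probe had 0.133 and 0.517 in positive arrays, against 0.107 and 0.461 in negative arrays.

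Bdnf, the ligand in the set, had 1 probe, with -0.0132 and 0.109 in positive arrays, against 0.0752 and 0.0479 in negative arrays. All of these values lay below the limit for dim probes, so Bdnf was not tested and no difference could be read at this signal. The neurotrophin genes Ntf3 (0.0144 and 0.148 in positive arrays, 0.0199 and 0.184 in negative arrays) and Ntf4 (0.151 and 0.0413 in positive arrays, -0.0970 and 0.155 in negative arrays) were equally dim.

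**Figure D2:**
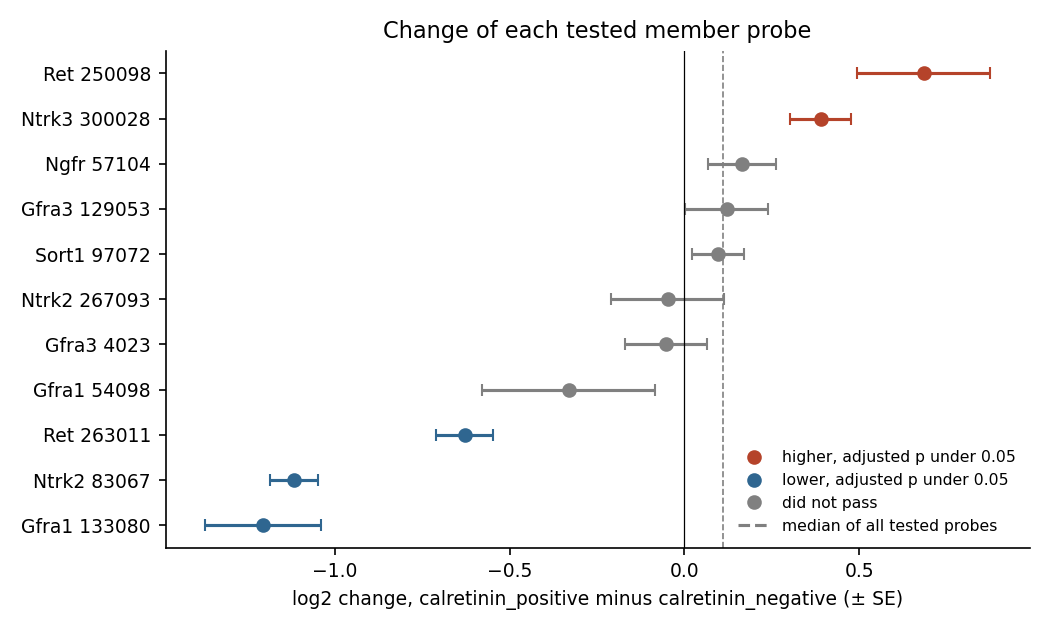
The log2 change (positive minus negative, horizontal axis) of each of the 11 tested probes, with bars for the SE, coloured by call at an adjusted p of 0.05 (limma). Gfra1 probe 133080 and Ntrk2 probe 83067 lie furthest to the left at -1.21 and -1.12, the Ret probes lie on opposite sides, and the dashed line is the median of all tested probes, 0.11.

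Gfra1, the co-receptor through which GDNF acts on RET, had 2 probes that could be read, both designed on NM_012959. Probe 133080 had 0.586 and 0.686 in positive arrays, against 1.64 and 1.31 in negative arrays. Both positive values were just above the limit for dim probes and the negative ones clearly above it. The mean was 0.636 ± 0.0709 in positive arrays and 1.47 ± 0.232 in negative arrays (SD, n = 2 each), with a log2 difference of -1.21 ± 0.17 (SE; adjusted p = 0.000153, limma). Probe 54098 had 0.528 and 0.416 in positive arrays, against 0.543 and 0.640 in negative arrays. It lay near the limit on all 4 arrays and did not pass (log2 change -0.33 ± 0.25, SE; adjusted p = 0.269, limma), with the same sign as probe 133080.

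Gfra2, the co-receptor preferred by neurturin, had 0.0851 and 0.0605 in positive arrays, against 0.199 and 0.155 in negative arrays, and was too dim to be tested. This level rests on the reading of the late part, because at its own row the Gfra2 probe would have 488 and 585 in positive arrays, against 518 and 513 in negative arrays. Gfra3, the co-receptor for artemin, had 2 early probes. Probe 129053 had 2.64 and 3.20 in positive arrays, against 2.42 and 2.95 in negative arrays, and probe 4023 had 1.83 and 2.17 in positive arrays, against 1.90 and 2.25 in negative arrays. The groups overlapped for both, the log2 changes were 0.12 ± 0.12 and -0.05 ± 0.12 (SE), and neither passed (adjusted p = 0.407 and 0.721, limma).

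Ret, the signalling subunit shared by the GDNF family receptors, had 2 late probes that disagreed. Probe 263011 (NM_012643) had 2.28 and 2.43 in positive arrays, against 3.76 and 3.53 in negative arrays, a log2 difference of -0.63 ± 0.08 (SE; adjusted p = 0.000105, limma). Probe 250098 (AF042830) had 0.901 and 0.799 in positive arrays, against 0.506 and 0.551 in negative arrays, a log2 difference of 0.68 ± 0.19 (SE; adjusted p = 0.0107, limma). The groups did not overlap for either probe, and each passed in its own direction, so the direction of Ret is not settled by these arrays. Probe 250098 did not pass without positive replicate 1 (adjusted p = 0.0577, limma). At their own rows both probes had a negative change, -0.67 for probe 250098 and -0.29 for probe 263011.

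**Figure D3:**
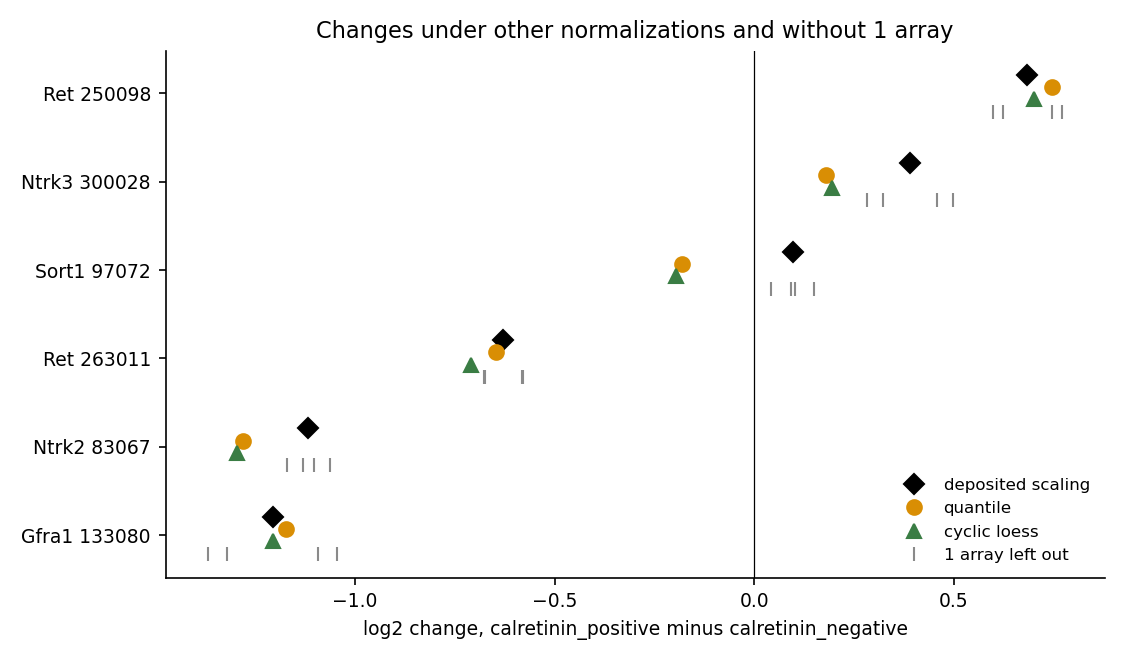
The log2 change (positive minus negative, horizontal axis) of 6 receptor probes with the deposited scaling (diamonds), quantile (circles) and cyclic loess normalization (triangles), and with each array left out in turn (ticks). Ntrk2 probe 83067, Gfra1 probe 133080 and Ret probe 263011 stay below 0 in all of these, Ntrk3 moves to 0.18 and 0.19 with the normalizations, and Sort1 changes sign with both.

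The patterns nearest to those of the receptors were sought among 9772 tested probes with 1 symbol, by Euclidean distance of log2 values centred on each probe's mean over the 4 arrays. For Gfra1 probe 133080, the largest fall among the 11 tested receptor probes, the nearest were Slc40a1 (distance 0.107), Wdr89 (0.110) and Nup153 (0.130). For Ret probe 250098, the largest rise among them, they were Dusp13b (0.0370), Nop58 (0.0372) and Slc39a13 (0.0379). With 4 arrays in 2 groups such likeness is common: 445 probes lay within a distance of 0.5 of the Gfra1 probe and 3668 within that distance of the Ret probe.

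Other genes of the pathway were read from 12 lists by role, 150 genes in all. Of these, 32 had no probe of 1 symbol, 7 lay between the parts, 33 were too dim and 78 were tested, each through its brightest probe. In positive arrays 36 of the 78 rose, 17 fell and 25 did not pass, which is 67.9% passing beside the 64.2% of all tested probes. Their median log2 change was 0.18. After quantile normalization 28 rose and 21 fell, and after cyclic loess 28 rose and 23 fell.

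Among ligands and receptors outside the set, Sorcs1, a relative of sortilin, rose to 5.41 and 4.79 in positive arrays, against 3.48 and 3.50 in negative arrays (log2 change 0.54, adjusted p = 0.000241, limma). Ncam1, a cell adhesion molecule that also serves as a GDNF receptor with GFRα co-receptors, fell to 3.82 and 3.72 in positive arrays, against 5.94 and 5.85 in negative arrays (log2 change -0.64, adjusted p = 2.87e-05, limma). Sdc3, a heparan sulphate proteoglycan that binds GDNF family ligands, fell too (25.3 in positive arrays, 35.8 in negative arrays, log2 change -0.51, adjusted p = 0.000548, limma). The ligand genes Nrtn, for neurturin (log2 change -0.22, adjusted p = 0.0321, limma), and Gdf15 (-0.33, adjusted p = 0.0458, limma) fell by small amounts, and 1 of the 2 lost its call with quantile normalization. Nradd, Sorcs2, Sorcs3 and Pspn had only probes too dim to be tested, and the probe of Gdnf was not read. Sorcs3 probe 70059 was above the limit in negative arrays only, with 0.151 and 0.0427 in positive arrays, against 0.664 and 0.819 in negative arrays (adjusted p = 0.00284 with no filter, limma), and no fold is given.

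Adaptors bind activated receptors and pass the signal on. Of 20 tested, 15 rose, 2 fell and 3 did not pass, beside 40.6% of all tested probes that rose. That share covers probes of every level, while each gene was read through its brightest probe. With the stricter filter on dim probes 6610 of 14047 probes rose. After either normalization 13 adaptors rose and 2 fell, where 6972 (quantile) and 6685 (cyclic loess) of all 21070 tested probes rose. Crk, an adaptor that couples receptors to small GTPases, averaged 10.7 ± 0.171 in positive arrays and 5.28 ± 0.0706 in negative arrays (SD, n = 2 each), with a log2 change of 1.01 (adjusted p = 1.11e-06, limma). A dimmer Crk probe on the same sequence, in the late part, had a change of -0.74 that did not pass (adjusted p = 0.122, limma). The Trk adaptors Shc1 (log2 change 0.72), Shc2 (1.02), Frs2 (0.61) and Sh2b2 (1.32) rose as well. Shc4, another SHC adaptor, fell to 38.3 and 39.8 in positive arrays, against 74.2 and 72.5 in negative arrays (log2 change -0.91, adjusted p = 2.39e-06, limma). Kidins220, a scaffold of Trk receptors, rose by its brighter probe (12.1 in positive arrays, 6.47 in negative arrays) and fell by its dimmer one (2.37 in positive arrays, 2.88 in negative arrays), so its direction depends on the probe.

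Kinases act downstream of the adaptors. For the counts that follow, the shares over all tested probes were 40.6% higher and 23.6% lower. Of 8 genes of the Ras and MAP kinase arm, Rps6ka3, a ribosomal S6 kinase, rose (15.3 in positive arrays, 8.27 in negative arrays), Map2k5 fell (20.7 and 21.4 in positive arrays, 27.4 and 24.9 in negative arrays) and 6 did not pass. These counts use the brightest probe of each gene. Among the 6, a dimmer probe passed for Rap1b (log2 change 0.68), Rps6ka5 (-0.97) and Rap1a (-0.27), so their calls depend on the probe. Of 8 genes of the PI3 kinase and AKT arm 3 rose, Pik3r2 with the smallest p (log2 change 0.27, adjusted p = 0.00447, limma), and 0 fell. Either normalization left 1 that rose, beside 1 that fell under quantile and 2 under cyclic loess. Pik3ca did not pass by its brightest probe (-0.08), but a dimmer one rose (0.40, adjusted p = 0.0377, limma). Of 9 negative regulators 5 rose and 2 fell, and 3 rose with either normalization. Among them were the ubiquitin ligase genes Cblb, at 2.27 and 2.33 in positive arrays, against 0.591 and 0.587 in negative arrays (log2 change 1.97, adjusted p = 7.93e-07, limma), and Nedd4l (1.38), while the receptor phosphatase gene Ptprf fell (-0.47).

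Of 5 genes that process or activate neurotrophins 1 rose and 2 fell, where 3 fell with quantile and 4 with cyclic loess normalization. Furin, a protease that cleaves proneurotrophins, averaged 5.29 in positive arrays and 3.16 in negative arrays (log2 change 0.74, adjusted p = 2.99e-05, limma), and Pcsk2, a prohormone convertase of secretory granules, 9.58 in positive arrays and 12.0 in negative arrays (-0.33, adjusted p = 0.00670, limma). Of 5 genes for p75 interactors and co-receptors 3 rose and 2 did not pass. Irak1, a kinase of interleukin-1 receptor signalling, had the smallest p (39.4 in positive arrays, 27.6 in negative arrays). Of 10 endosomal transport genes 4 rose and 4 fell. Beside this and the other counts here, 40.6% of all tested probes rose and 23.6% fell. Rab11a, a GTPase of recycling endosomes, rose by its brighter probe, at 122 in positive arrays and 80.9 in negative arrays. Its dimmer probe did not pass (log2 change 0.14, adjusted p = 0.157, limma). Hap1, a huntingtin-associated transport protein, fell, at 3.13 in positive arrays and 5.08 in negative arrays. Rab7a counted as a fall by its brighter probe (log2 change -0.21), while its dimmer probe rose (0.19), so its direction depends on the probe. Of 8 genes known to respond to such signalling 3 rose and 2 fell. The transcription factor gene Egr1 averaged 16.9 in positive arrays and 9.76 in negative arrays, Nr4a1 averaged 4.02 in positive arrays and 7.03 in negative arrays, and Vgf, a secreted peptide precursor, did not pass (74.6 in positive arrays, 76.9 in negative arrays).

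**Figure D4:**
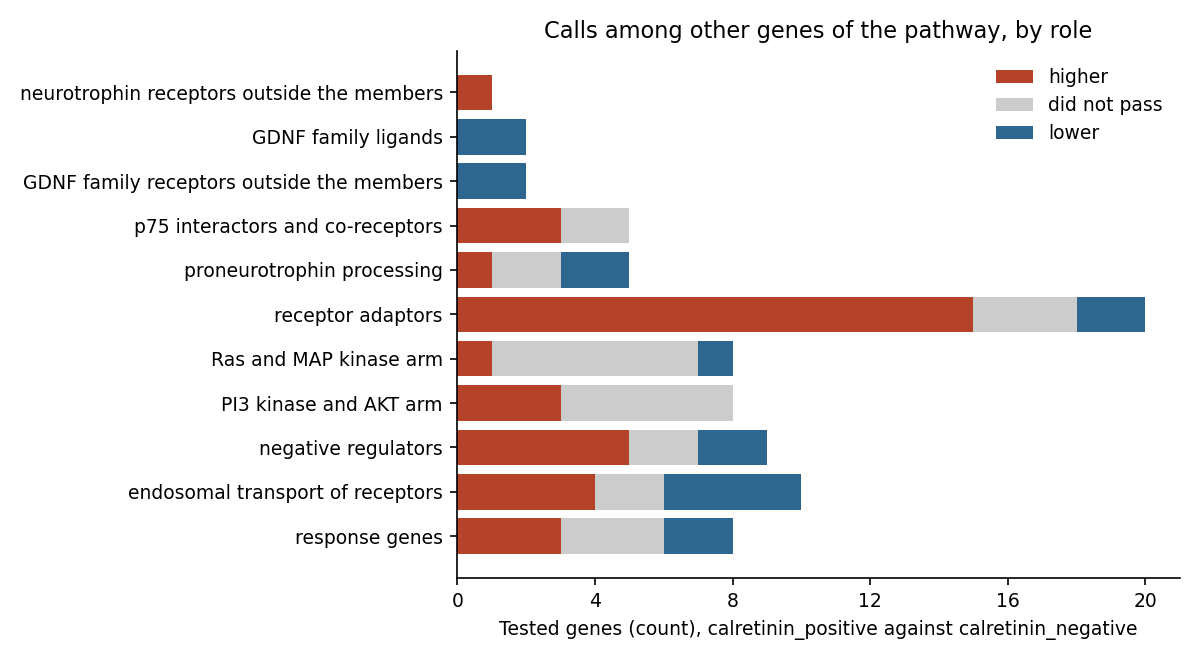
Number of tested genes (horizontal axis) in each role list that rose, did not pass or fell in positive arrays against negative arrays at an adjusted p of 0.05 (limma). The adaptor list is the longest, with 15 of 20 genes higher, and the ligand and GDNF receptor lists hold 2 lower genes each.

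Markers of other cell types moved in the same arrays as Ntrk2 and Gfra1. Over all tested probes, 40.6% rose and 23.6% fell. Their intensities were summed over each list as a description, and a sum follows its brightest probes, such as Cldn11 for oligodendrocytes (185 in positive arrays, 194 in negative arrays), Vim for fibroblasts (361 in positive arrays, 240 in negative arrays) and Uchl1 for neurons. Among markers of Schwann cells and satellite glia, 5 were tested, of which 4 fell and 0 rose, and their summed intensity was 112 to 123 in positive arrays and 224 to 239 in negative arrays. Mbp, of myelin, had 1.55 ± 0.0163 in positive arrays and 13.4 ± 0.0241 in negative arrays (SD, n = 2 each), and the glial transcription factor gene Sox10 had 1.29 ± 0.233 in positive arrays and 6.10 ± 0.0207 in negative arrays. Mag, Erbb3 and Cdh19 were too dim to be tested. Cdh19 was above the limit in negative arrays only, with 0.0932 and 0.0972 in positive arrays, against 0.880 and 0.765 in negative arrays (adjusted p = 0.000246 with no filter, limma). Of 5 oligodendrocyte markers 3 fell, Mog and Mobp by over 5 on the log2 scale, with sums of 205 to 207 in positive arrays and 332 to 339 in negative arrays. A dimmer tested probe of Mobp, in the late part, fell by less (log2 change -2.65). Of 4 astrocyte markers 3 fell, and the water channel gene Aqp4 had 0.344 and 0.603 in positive arrays, against 48.4 and 51.7 in negative arrays, with sums over the list of 123 to 136 in positive arrays and 242 in both negative arrays. A dimmer tested probe of Aqp4, in the late part, had 1.09 and 0.947 in positive arrays, against 5.04 and 4.85 in negative arrays (log2 change -2.28). Gfap, of the astrocyte cytoskeleton, had 1.04 in positive arrays and 44.5 in negative arrays.

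Of 7 endothelial and mural markers 6 fell, Pecam1 (2.30 in positive arrays, 8.72 in negative arrays) and Tek with the smallest p, with sums of 24.8 to 24.9 in positive arrays and 53.5 to 54.8 in negative arrays. Flt1 counted as a fall by its brightest probe (log2 change -0.19, adjusted p = 0.0351, limma). Its dimmer tested probe rose (0.97, adjusted p = 0.000261, limma), so its direction depends on the probe. Of 5 blood and immune markers 3 fell, Alas2 and Csf1r with the smallest p, and 2 rose. Those that rose were Ptprc (27.1 in positive arrays, 21.3 in negative arrays) and Cd68 (3.96 in positive arrays, 2.93 in negative arrays). The list summed to 89.7 to 93.4 in positive arrays and 155 to 165 in negative arrays. Csf1r, its brightest gene, had 50.2 in positive arrays and 115 in negative arrays. Fibroblast and meningeal markers (2 of 5 rose, with Ogn at 117 in positive arrays and 55.1 in negative arrays, and 2 fell, with Dcn at 8.48 in positive arrays and 16.5 in negative arrays) summed to 536 to 544 in positive arrays and 364 to 373 in negative arrays. Of the hair cell markers Ush1c fell and Otof did not pass, with sums of 8.20 to 8.67 in positive arrays and 10.1 to 10.3 in negative arrays. The part of these cells in the changes of Ntrk2, Gfra1 and the other receptors was not tested. In pooled bulk RNA, fewer cells of a type and less RNA per cell cannot be told apart.

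Markers of the labelled cell type, neurons, were above the limit for dim probes in all 4 arrays by the brightest probe of each gene named here other than Snap25. Of 7 tested neuron markers 5 rose in positive arrays and 1 fell, and 2 rose with either normalization. Elavl4 fell by its brighter probe (log2 change -0.88, adjusted p = 0.000288, limma), and its other probe (-0.23) did not pass. Gap43 did not pass by its brighter probe (0.12), but its dimmer probe fell (-1.62, adjusted p = 1.12e-06, limma). Uchl1 had 202 and 190 in positive arrays, against 165 and 169 in negative arrays, by its bright probe in the late part. Its other probe lay below the limit on all 4 arrays. By the brightest probe of each gene, the neurofilament genes Nefm (102 in positive arrays, 68.3 in negative arrays) and Nefh (3.87 in positive arrays, 1.26 in negative arrays) had the smallest p. Snap25 was too dim to be tested. The summed intensity of the neuron list was 357 to 369 in positive arrays and 290 in both negative arrays. The part of these neuron marker changes in the rises of the adaptors, Ntrk3 and Sorcs1 was not tested.

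**Figure D5:**
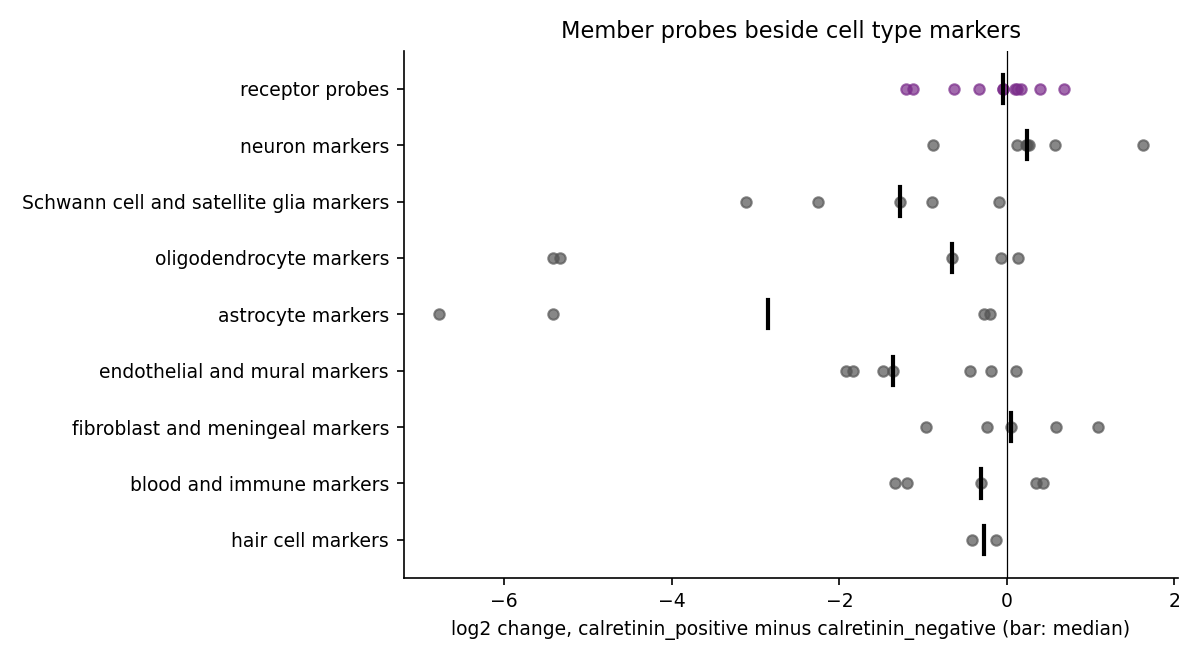
The log2 change (positive minus negative, horizontal axis) of the 11 tested receptor probes (top) and of the tested genes of each cell type marker list, a point each, with a bar for the median. The receptor probes lie between -1.21 and 0.68, and the astrocyte and oligodendrocyte lists reach below -5.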

How the data were processed

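The authors deposited a table of probe intensities on a linear scale for 4 arrays of 35126 probes. The sources used here do not give how the scans were corrected and scaled. All 4 array medians lay near 0.99, as after a scaling to the median. Whether genes were centred is unknown. Entries of -9999 were read as missing. Before log2, each array's floor was the 1st percentile of its positive values (at most 0.0181), which replaced missing, zero, negative and lower values, and probes with a mean log2 below the 40th percentile were left out, leaving 21070. Means and SDs are of the linear values as deposited.

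Names came from GEO's platform annotation. Of 16677 probes with 1 symbol, 16649 had a gene ID in the rat gene table, through which symbols were updated. The test was limma's (version 3.58.1, with R 4.3.3; lmFit, eBayes with a trend, two-sided, Benjamini-Hochberg over all tested probes). It was first run on simulated data, where it recovered 17.9% of log2 changes of 0.5 and 61.2% of log2 changes of 1. That run gave 111 calls, far fewer than the real arrays, so it sets no rate of false calls for these data. Replicate numbers came from the titles. Deviations from the group means showed no likeness between arrays of the same number (r = 0.000556). Every set gene was named by probe, with all ligands and receptors read in 4 pathway lists, the gene with the smallest p in each direction of each pathway list and the 2 with the smallest p in each marker list. Seen values led to the naming of Shc1, Shc2, Frs2, Sh2b2, Kidins220, Rap1a, Rap1b, Rps6ka5, Pik3ca, Rab7a, Cldn11, Vim, Nedd4l, Vgf, Uchl1, Snap25, Elavl4, Gap43, Ptprc, Cd68, Flt1 and the dim markers. The members and lists were chosen with earlier results of these data known, including the 5-row reading of the late part. The number of arrays limits the precision. Figures were drawn with matplotlib 3.10.9.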

Additional observations from a re-analysis of the deposited data

How the results depend on the processing

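Settings tried were 2 normalizations (quantile, cyclic loess), the replicate number as a block, a stricter or no filter on dim probes, a robust prior or none, a higher floor, leaving out each array, other readings of names and a threshold of 0.01. Of 129 values of the 11 tested receptor probes under these settings, 113 kept their sign and their side of the threshold, 7 lost their call and 9 changed sign. The 129 values leave out the threshold of 0.01 and any probe that a setting left untested. The block, the filters and the priors do not alter the log2 change, so no sign could change under them. The count of values that kept their sign is therefore no measure of stability. The replicate block gave 13711 called probes, 5 receptor probes and 57 pathway genes, and changed no call of a receptor probe. Same-numbered arrays share only a number.

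With each probe tested on its own spread, 7082 probes passed (4492 higher, 2590 lower), 2 receptor probes (0 higher) and 26 pathway genes (20 higher, 6 lower). Gfra1 probe 133080 (log2 change -1.21), Ntrk3 (0.39) and Ret probe 250098 (0.68) then lost their calls, at an adjusted p of 0.0634, 0.148 and 0.0600 (limma's fit with no prior). Both normalizations left 1 receptor probe higher. Ntrk3 lost its call (0.18 with quantile, 0.19 with loess) and Sort1 probe 97072 turned to -0.18 and -0.20. The cause of these shifts was not tested. A filter at the 60th percentile, by which fewer could be tested, left 3153 lower probes in all and 3 of 6 receptor probes passing, 1 of them higher. With no filter 7 of 19 receptor probes passed. With the higher floor, the 5th percentile, 12 receptor probes could be tested and 6 passed, 4 of them lower.

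With late names at their own row 1 receptor probe was higher, Sort1 probe 289080 (0.70), while Ntrk3 became too dim to be tested. Ret probe 250098 turned to -0.67 and Ret probe 263011 lost its call at -0.29. With names of the early part only, 2 receptor probes of 7 tested passed, 0 of them higher, and 27 pathway genes of 41 tested (17 higher, 10 lower). At an adjusted p of 0.01, 1 receptor probe was higher and 11 pathway genes were lower. Leaving out 1 array gave 12262 to 12764 called probes, 4 to 5 receptor probes (1 to 2 higher) and 45 to 52 pathway genes, with the lone array assumed to vary like the other group. Ret probe 250098 then ranged from 0.60 to 0.77 and lost its call without positive replicate 1. Of the 6 uncalled probes 3 changed sign: Gfra3 probe 4023 from -0.18 to 0.071, Gfra3 probe 129053 from -0.022 to 0.26 and Ntrk2 probe 267093 from -0.13 to 0.037.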
